A study of Mus musculus with 6 samples.

Results

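Aminoacyl tRNA synthetases are the enzymes that load each tRNA with its amino acid. Here they are the genes of the deposited table whose symbol is 1 capital letter followed by ars or ars2, together with *Eprs*, *Farsa* and *Farsb*. The rule found 37 of 25899 genes, of which 20 encode cytosolic enzymes and 17 (symbols ending in 2) mitochondrial ones, and no member had a duplicated symbol. *Lars2*, the mitochondrial leucyl enzyme, is described apart, so that most values for the mitochondrial enzymes refer to the 16 others. *Tarsl2*, a further threonyl enzyme, falls outside the rule and is counted with the partner genes.

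The libraries came from oocytes of aged females (AF), CD1 mice of 58 weeks in the labels, while the methods of the study name ICR mice and a lower age, given in months. Females had been primed with gonadotropin. Denuded oocytes were cultured for 180 min until the nuclear envelope had broken down, and 200 of them went into each sample. All samples received cycloheximide at 0.1 mg/ml, which holds ribosomes on mRNA. Lysates were separated on sucrose gradients into 10 fractions, which were pooled into a non-polysomal (NP) and a polysomal (P) part, with 3 libraries of each. RNA was depleted of rRNA and amplified as whole transcriptome before sequencing. The comparison made here was P against NP within AF. It asks how the levels of the synthetase mRNAs differed between the fraction that carries several ribosomes and the one that does not. Libraries of young females were not analysed here. No source used here says that the 3 samples of a fraction came from separate animals, so p-values measure the spread between these libraries. In such bulk samples, fewer cells of a type and less RNA per cell cannot be told apart.

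In the cytosol, 8 of the enzymes are known to assemble with 3 scaffold proteins into the multisynthetase complex. Phenylalanyl synthetase is built of an alpha subunit (*Farsa*) and a beta subunit (*Farsb*). Mitochondria use separate, nuclear encoded enzymes, except that *Gars* and *Kars* each encode both the cytosolic and the mitochondrial form, and that glutaminyl tRNA is made there by amidation of a mischarged tRNA. A fully grown oocyte transcribes little, and during meiotic maturation its protein synthesis draws on stored mRNAs that move onto or off polysomes.

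Values are FPKM, fragments scaled to exon length and to the mapped reads of the library. A ratio of P over NP therefore does not give the share of an mRNA that lies in each fraction. The recovered depth differed widely between libraries. The values fell on steps, and the number of steps per library was 1237799, 18096676 and 12131030 in NP replicates 1 to 3 and 163822, 1141531 and 1549317 in P replicates 1 to 3. Between 81.7% and 86.3% of the low values checked came out whole within 0.02 steps, and what 1 step counts is not settled. For a gene with 2 kb of exon, 3 steps, the limit that a listed 0 allows for counting error alone, were worth 0.0829 to 1.21 FPKM in NP and 0.968 to 9.16 FPKM in P. P replicate 1 was thus the shallowest library. Steps and limits of single genes use the annotated exon length where the coordinates match GENCODE M21 or no length could be inferred, and otherwise a length inferred from the values, which can be far shorter (4850 against 18102 bases for *Eprs*) and makes them less certain. The 10 oocyte markers summed to between 4699 and 13725 FPKM in every library. Of 11 granulosa and cumulus markers the sum was between 0.152 and 104 FPKM, highest in NP replicate 3, where *Cyp19a1* carried it, and *Amh*, *Fshr* and *Foxl2* were listed at 0 in all libraries. The 4 blood markers found were at 0 throughout. The part of granulosa RNA in the results was not tested.

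Cytosolic enzymes were detected more widely than mitochondrial ones. In NP, 18 of 20 cytosolic mRNAs were above 0 in 3 libraries, 1 (*Lars*) in 2, and *Yars* in none. In P, 10 were above 0 in 3 libraries, 7 in 2 and 2 in 1. Of the 16 mitochondrial mRNAs, 10 were above 0 in all NP libraries and 3 (*Aars2*, *Fars2* and *Sars2*) in all P libraries. The tyrosyl enzymes of both compartments, *Yars* and *Yars2*, and the mitochondrial histidyl enzyme *Hars2* were listed at 0 in all 6 libraries. A cell that makes protein uses all 3, so a listed 0 is not taken as absence. The limit of 3 steps for *Yars* was 0.0279 FPKM in NP replicate 2, the deepest library, and 3.08 FPKM in P replicate 1. *Hars2* shares 195 bases of exon with *Hars* on the opposite strand. Exons of 14 of the 37 genes overlap those of another annotated gene, over at most 24.2% of their length (*Iars2*), and the strand setting of the counting is not given. *Kars*, *Wars2* and *Lars2* are not among these 14.

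**Figure D1:**
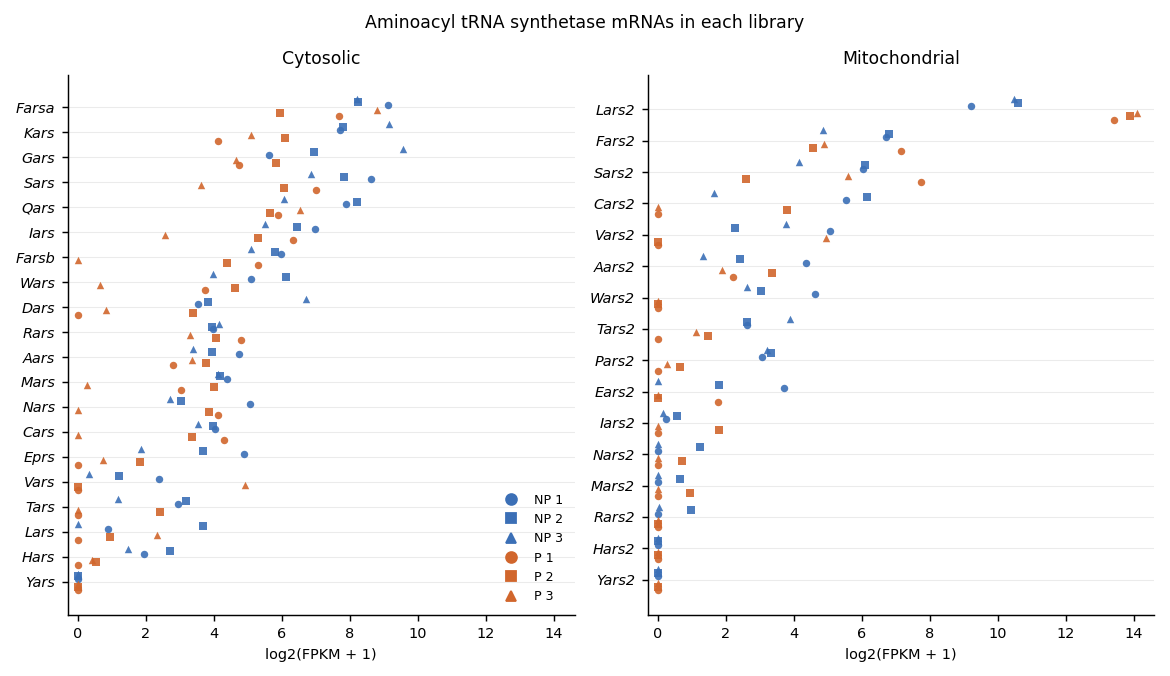
Level of 36 synthetase mRNAs as log2(FPKM + 1) in each library, cytosolic enzymes on the left and mitochondrial ones on the right, ordered by mean FPKM. Blue marks are NP and orange marks P, with the shape giving the replicate. *Lars2* lies to the right of all other enzymes in P, and *Yars*, *Yars2* and *Hars2* are at 0 throughout.

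*Farsa*, *Kars*, *Gars*, *Sars* and *Qars* had the highest mean levels among the cytosolic enzymes. Together they held between 64.2% and 91.1% of the cytosolic synthetase FPKM of a library. Mean FPKM was above 10 for 15 of 20 cytosolic enzymes in NP and 9 in P. Among the mitochondrial enzymes it was above 10 for 5 of 16 in NP and for *Fars2* and *Sars2* alone in P. The median over the enzymes of their mean FPKM was 17.01 in NP and 9.74 in P for the cytosolic class, and 6.45 and 0.806 for the mitochondrial one.

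The comparison of P with NP called 2 synthetases, 1 in each direction. *Kars*, the lysyl enzyme of both compartments, fell in P, and *Lars2* rose. The test was limma on log2(FPKM + 1) over 10578 genes whose mean exceeded 1 FPKM in NP or in P, at an adjusted p under 0.1. It called 1.80% of these genes lower in P and 0.0189% higher, together 1.82%. This filter kept 30 of the 37 synthetases, 19 cytosolic and 11 mitochondrial with *Lars2*. Besides the 3 listed at 0, *Mars2*, *Iars2*, *Rars2* and *Nars2* did not pass it. Across all genes tested, the ratio of P over NP had a median of -1.03 on the log2 scale, and ratios relative to it are also given. The scale log2(FPKM + 1) understates the change of genes with low values.

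*Kars* lies on the minus strand of chromosome 8 (111993440 to 112011323, GRCm38). Its level in NP replicates 1, 2 and 3 was 207, 219 and 566 FPKM, on average 331 ± 204 (SD, n = 3). In P it reached 16.3, 66.6 and 32.7 FPKM, on average 38.5 ± 25.7 (SD, n = 3). All P libraries lay below all NP libraries, as they did for 23.2% of the genes tested, and the mean was 8.58 times higher in NP. The log2 ratio was -3.12 ± 0.84 (SE), or -2.09 relative to all genes, with an adjusted p of 0.0794 (limma). The call was lost in 4 of the fits that leave out a library, with adjusted p of 0.368 without NP replicate 1, 0.317 without NP replicate 2, 0.174 without NP replicate 3 and 0.154 without P replicate 1. It was also lost under each rescaling of the libraries, where the log2 ratio was -2.13, -1.99 and -2.10, and at a pseudocount of 0.1 (adjusted p = 0.134, limma), with no filter (0.298) and without the trend (0.153).

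The other highly expressed cytosolic enzymes had no adjusted p under 0.1. *Gars*, the glycyl enzyme of both compartments (chromosome 6, 55038001 to 55079504), was at 47.7, 122.5 and 749.9 FPKM in NP and at 25.5, 55.7 and 23.8 FPKM in P. NP replicate 3 stood far above the others, and P replicate 2 lay above NP replicate 1. *Kars* was also highest in that library, and the 2 genes held 64.2% of the cytosolic FPKM there, against 6.59% to 26.5% in the other 5. The log2 ratio of *Gars* was -2.31 ± 0.97 (SE, adjusted p = 0.261, limma), with -3.19 without NP replicate 1 and -1.21 without NP replicate 3.

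*Sars*, the seryl enzyme, was at 394, 226 and 114 FPKM in NP and at 127, 66.2 and 11.3 FPKM in P. Each P library was lower than the NP library of the same number, but P replicate 1 was above NP replicate 3, so the groups overlapped. Its log2 ratio was -2.20 ± 0.91 (SE, adjusted p = 0.256, limma), with -2.92 without P replicate 1 and -1.23 without P replicate 3. *Qars*, the glutaminyl enzyme, was at 234, 293 and 65.4 FPKM in NP and at 58.1, 48.6 and 91.4 FPKM in P. Its log2 ratio was -1.36 ± 0.83 (SE, adjusted p = 0.415, limma), and -2.02 to -0.95 with 1 library left out.

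The subunits of phenylalanyl synthetase were not listed at like levels. *Farsa* was at 559, 301 and 293 FPKM in NP and at 204, 59.8 and 440.1 FPKM in P, on average 384 ± 151 in NP and 235 ± 192 in P (SD, n = 3). P replicate 3 exceeded NP replicates 2 and 3, and the log2 ratio, -1.06 ± 0.75 (SE, adjusted p = 0.471, limma), lay next to the median of all genes. It was -0.29 without P replicate 2 and -1.72 without P replicate 3. *Farsb* was at 61.7, 54.6 and 33.2 FPKM in NP and at 37.99, 19.99 and 0 FPKM in P. *Farsa* was 5.51 to 9.06 times higher per length than *Farsb* in the NP libraries, and 5.38 and 2.99 times in P replicates 1 and 2. Ratios between genes depend on the exon length that FPKM was divided by.

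*Dars*, the aspartyl enzyme, and *Eprs*, which joins the glutamyl and prolyl activities in 1 protein, had, with *Kars*, the lowest ratios among the cytosolic enzymes that were lower in all same-numbered libraries. *Dars* was at 10.6, 13.1 and 104 FPKM in NP and at 0, 9.43 and 0.772 FPKM in P, so that P lay below NP without overlap. NP replicate 3 was again the highest. The log2 ratio of *Dars* was -3.29 ± 1.31 (SE, adjusted p = 0.234, limma), and -4.28 to -2.28 with 1 library left out. *Eprs* was at 28.7, 11.7 and 2.63 FPKM in NP and at 0, 2.53 and 0.665 FPKM in P, also without overlap. Its log2 ratio was -2.62 ± 1.25 (SE, adjusted p = 0.313, limma), and -3.42 to -1.91 with 1 library left out.

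Not all cytosolic enzymes had negative ratios. *Rars*, the arginyl enzyme, was at 14.8, 14.3 and 16.8 FPKM in NP and at 26.5, 15.5 and 8.80 FPKM in P, with a log2 ratio of 0.016 ± 1.07 (SE). *Vars*, the valyl enzyme, was at 4.18, 1.32 and 0.250 FPKM in NP, and in P at 28.9 FPKM in replicate 3 and at 0 in the others, so that its ratio of 0.33 ± 1.28 (SE) came from 1 library. The mitochondrial valyl gene *Vars2* showed the same single high P library, as given with the mitochondrial enzymes.

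As a class, 17 of the 19 cytosolic enzymes tested had a log2 ratio below 0, as did 80.1% of all genes tested, and 14 lay below the median of all genes. The class median was -1.63, against -1.03 over all genes. All P libraries lay below all NP libraries for 5 of 19 (*Dars*, *Eprs*, *Kars*, *Mars* and *Hars*), against 23.2% of all genes, and P was lower in all 3 same-numbered libraries for 12 of 19, against 38.6%. An unadjusted p under 0.05 was found for 5 of 19, against 15.8% of all genes. For *Hars* and *Eprs* the lack of overlap rests in part on a listed 0 in P replicate 1. There, 3 steps were worth 9.22 FPKM for *Hars*, above all its NP values of 2.85, 5.56 and 1.78 FPKM, and 3.78 FPKM for *Eprs*, above its lowest NP value. *Hars* also passed the filter through NP alone (mean 3.397 FPKM, against 0.255 in P), so its place in these counts was set by the filter. No cytosolic enzyme rose past the threshold. Of the 8 enzymes of the multisynthetase complex, 7 had a ratio below 0, their median was -1.69, and 4 did not overlap between fractions. Of the 11 outside the complex that were tested, 10 had a ratio below 0, the median was -1.63, and *Hars* alone, kept through its NP level, did not overlap. The difference between these subsets was not tested.

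**Figure D2:**
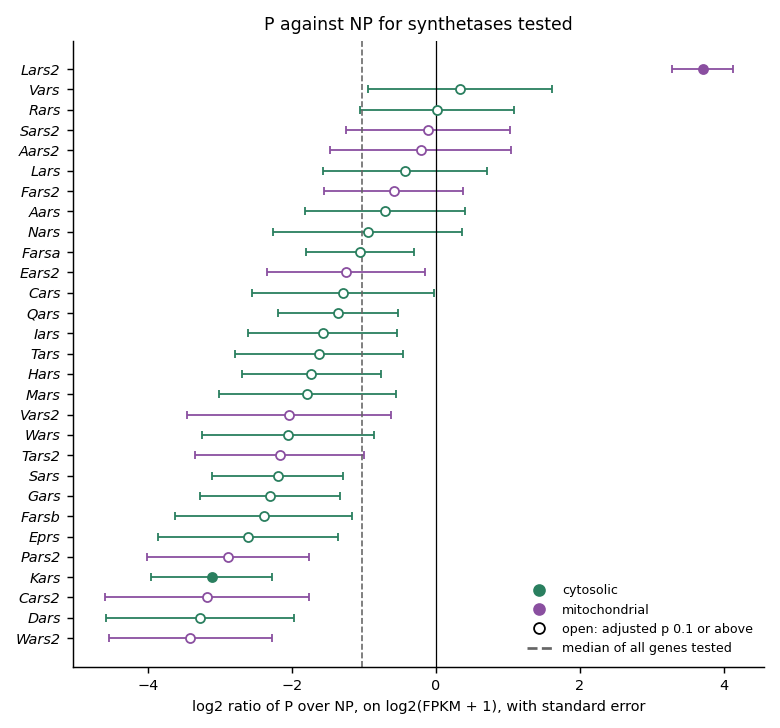
Log2 ratio of P over NP with its standard error (limma, log2(FPKM + 1), 3 libraries against 3) for 29 of the synthetases tested, sorted by ratio, cytosolic in green and mitochondrial in purple. Filled marks, *Kars* at -3.12 and *Lars2* at 3.71, have an adjusted p under 0.1. The dashed line is the median of all genes tested, -1.03.

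Among the mitochondrial enzymes, *Fars2* and *Sars2* had the highest means. Together they made up between 44.0% and 98.3% of the summed FPKM of the 16 genes. *Fars2*, the phenylalanyl enzyme, was at 103, 109 and 28.0 FPKM in NP and at 141, 22.7 and 28.3 FPKM in P. *Sars2*, the seryl enzyme, was at 64.3, 66.6 and 16.7 FPKM in NP and at 211, 5.05 and 47.0 FPKM in P. Both were highest in P replicate 1, and both fractions overlapped. The log2 ratios were -0.59 ± 0.97 (SE) for *Fars2* and -0.11 ± 1.14 (SE) for *Sars2*, and both turned positive when the libraries were rescaled. With 1 library left out *Fars2* ran from -1.40 to -0.11.

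Some other mitochondrial enzymes were at higher FPKM in NP than in P. *Wars2*, the tryptophanyl enzyme, lies on chromosome 3 (99141068 to 99239186). It had 23.5, 7.13 and 5.13 FPKM in NP, on 173, 767 and 370 steps, and was listed at 0 in all P libraries. Its 3-step limit in P was 3.08, 0.442 and 0.326 FPKM, each below the lowest NP value. The log2 ratio was -3.42 ± 1.14 (SE), the lowest of all synthetases in this fit, with an adjusted p of 0.161 (limma). At a pseudocount of 5 the ratio of *Wars2* was -1.60, and that of *Kars* was lower at -2.96. With the replicate number as a block the adjusted p of *Wars2* was 0.073 (limma). *Pars2*, the prolyl enzyme, was even in NP at 7.31, 9.07 and 8.29 FPKM, and at 0, 0.566 and 0.209 FPKM in P. The P values of *Pars2* stood on 0, 2 and 1 steps, and 3 steps in P replicate 1 were worth 5.92 FPKM. Its log2 ratio was -2.89 ± 1.12 (SE, adjusted p = 0.218, limma).

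*Cars2*, the cysteinyl enzyme, was at 45.5, 70.6 and 2.14 FPKM in NP and at 0, 12.8 and 0 FPKM in P. P replicate 2 exceeded NP replicate 3, and the log2 ratio was -3.19 ± 1.42 (SE, adjusted p = 0.285, limma), between -4.59 and -2.33 with 1 library left out. *Vars2* was at 32.3, 3.83 and 12.5 FPKM in NP, at 29.9 FPKM in P replicate 3 and at 0 in the other P libraries. *Tars2*, the threonyl enzyme, was at 5.10 to 13.9 FPKM in NP and at 0 to 1.78 FPKM in P. All its P libraries thus lay below all its NP libraries, as for 23.2% of the genes tested. *Aars2* and *Ears2*, the alanyl and glutamyl enzymes, ranged from 0 to 19.3 FPKM, and their fractions overlapped.

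All 10 mitochondrial enzymes tested apart from *Lars2* had a log2 ratio below 0, against 80.1% of all genes, with a median of -1.65. None was called in this fit, and *Wars2* alone was with the replicate number as a block. Of the 10, 3 (*Wars2*, *Pars2* and *Tars2*) lay lower in P without overlap, against 23.2% of all genes. In all 3 same-numbered libraries 4 were lower, against 38.6%. An unadjusted p under 0.05 was found for 3, against 15.8%. In percent these counts were 30, 40 and 30, and none was tested against its share over all genes. *Wars2*, *Pars2*, *Tars2* and *Ears2* passed the filter through NP alone, so a lower mean in P was set by the filter for them. The 6 that did not pass are not in these counts, among them *Mars2* and *Iars2*, whose means were higher in P (0.304 against 0.185 and 0.822 against 0.259 FPKM). For both genes the P mean came from P replicate 2 alone. With no filter the median over 14 enzymes was -0.53, close to the -0.59 of all genes in that fit. The medians of the classes, -1.63 and -1.65, were near each other in this fit but not with no filter, where they were -1.63 and -0.53. With the filter they were -2.34 and -2.94 at a pseudocount of 0.1, and -0.90 and -0.90 when rescaled to a common sum. By same-numbered libraries they ran -1.45, -1.21 and -2.72 for the cytosolic enzymes and -2.51, -2.24 and -0.15 for the mitochondrial ones. The classes thus had no common order across the libraries.

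The summed level of the cytosolic enzymes was lower in every P library than in every NP library. It was 1823, 1489 and 2049 FPKM in NP and 635, 462 and 658 FPKM in P. The mitochondrial sum was 317, 284 and 88.5 FPKM in NP and 358, 62.9 and 109 FPKM in P, with P replicate 1 the highest of all 6. The mitochondrial share of the summed FPKM was therefore 14.8%, 16.0% and 4.14% in NP and 36.04%, 11.99% and 14.2% in P, and the fractions overlapped. The mean share was 11.7% in NP and 20.8% in P, and 13.1% in P without replicate 1. When log2(FPKM + 1) was summed in place of FPKM the order turned, with 28.3% in NP and 24.98% in P. Values for all listed genes summed to between 597261 and 633110 FPKM in NP and between 246182 and 393876 FPKM in P. As a percentage of that sum, the cytosolic enzymes held 0.235% to 0.343% in NP and 0.167% to 0.188% in P.

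**Figure D3:**
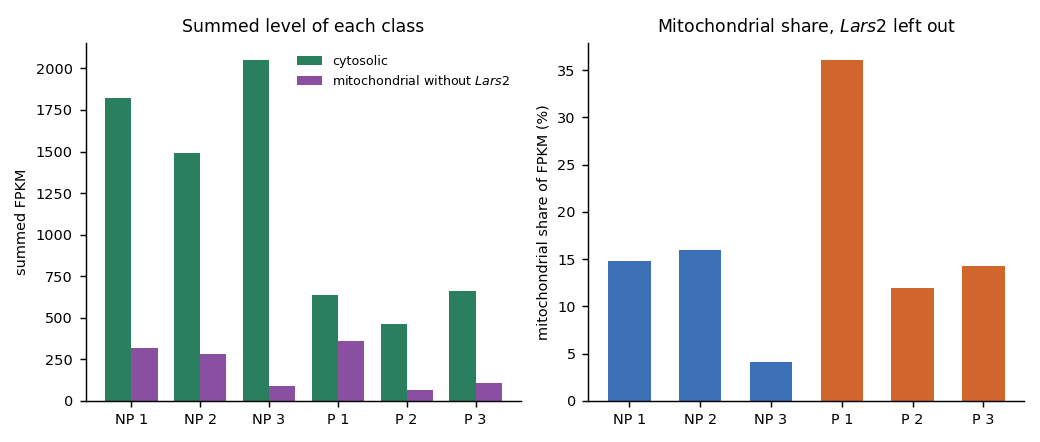
Left, summed FPKM of the 20 cytosolic and the 16 mitochondrial enzymes other than *Lars2* in each library; right, the mitochondrial share of that sum in percent, NP in blue and P in orange. The cytosolic sum lies between 1489 and 2049 in NP and between 462 and 658 in P. The mitochondrial share is highest in P replicate 1, at 36.04%.

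For 16 amino acids an enzyme of each compartment could be set side by side, leaving leucine out, with *Farsa* and *Farsb* averaged and *Eprs* used for glutamate and proline. The cytosolic mRNA had the higher mean in 12 pairs in NP and 13 in P, and both tyrosyl genes were at 0. In NP the mitochondrial mRNA was higher for cysteine (*Cars2*, 39.4 against 13.5 FPKM), threonine (*Tars2*, 8.04 against 5.36 FPKM) and valine (*Vars2*, 16.2 against 1.91 FPKM). In P it was higher for serine (*Sars2*, 87.6 against 68.2 FPKM) and valine (*Vars2*, 9.97 against 9.62 FPKM). *Sars2* was the higher in P replicates 1 and 3 and *Sars* in P replicate 2, while the valyl genes were above 0 in P replicate 3 alone. The valyl pair was the only one of the 16 in which the mitochondrial mRNA was higher in 4 libraries and the cytosolic one in none. The methionyl, isoleucyl, arginyl, alanyl and tryptophanyl enzymes were higher in the cytosolic form in all 6 libraries.

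*Lars2* differed from all other synthetases. The gene is on the plus strand of chromosome 9 (123366940 to 123462664). NP libraries listed 592, 1530.0 and 1416 FPKM and P libraries 11005, 15083 and 17299 FPKM, on average 1179.6 ± 512 in NP and 14462 ± 3193 in P (SD, n = 3). Every P library was above every NP library, as for 0.633% of all genes tested. The mean was 12.3 times higher in P. The log2 ratio was 3.71 ± 0.42 (SE) with an adjusted p of 5.8e-05 (limma), and it was 4.74 above the median of all genes. Without NP replicate 3 the ratio was 3.90 with an adjusted p of 0.165, and the call was also lost with no filter (0.263) and without the trend (0.119). *Lars2* was the highest of all listed genes in each P library, and ranked 151, 39 and 54 in NP. It held 3.22% to 6.13% of all FPKM in P and 0.0968% to 0.242% in NP. In P it was 11.1 to 28.7 times the sum of the 36 other synthetases, and in NP 0.277 to 0.863 times. Its cytosolic counterpart *Lars* was at 0.838, 11.7 and 0 FPKM in NP and at 0, 0.909 and 4.02 FPKM in P.

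The gene ranked next to *Lars2* in P was *Gm15564*, annotated as an antisense RNA on chromosome 16. It was at 431, 1002 and 888 FPKM in NP and at 6245, 9061 and 11922 FPKM in P, and was the second highest gene in every P library and ranked 235, 74 and 102 in NP. Its log2 ratio was 3.59 ± 0.45 (SE, adjusted p = 0.00022, limma), and these were the only 2 genes of 10578 called higher in P. The call of *Gm15564* was lost without NP replicate 3 (adjusted p = 0.165, limma), with no filter (0.263) and without the trend (0.127). *Lars2* was 1.37 to 1.76 times *Gm15564* in all 6 libraries. A BLAST comparison of the annotated transcripts found 72 bases shared by both genes with 98.6% identity and 0 gaps. In *Lars2* they lie at chr9:123462048-123462119 in the 3′ UTR, in exon 21 of 21. In *Gm15564* they lie on the minus strand of chromosome 16 and join 1 base of exon 1 (35983052) to 71 bases of exon 2 (chr16:35981725-35981795). The copy of *Gm15564* is shown because a short read from it would match both genes almost equally, with the capital at the only difference, T53A from *Gm15564* to *Lars2*, counted from 1 at the 5′ end:
Gm15564 stretch: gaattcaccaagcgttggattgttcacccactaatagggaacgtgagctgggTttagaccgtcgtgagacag
The deposited values give 1 number for a gene, so where along *Lars2* its reads fell was not tested, and neither was the share of its level that lies outside these 72 bases. Of 12 genes on a list of ribosomal RNA and related features, *Gm15564* was the one found in the table. The shared stretch was not compared with ribosomal RNA sequence here, so whether the level of *Lars2* in P is that of its mRNA was not tested.

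**Figure D4:**
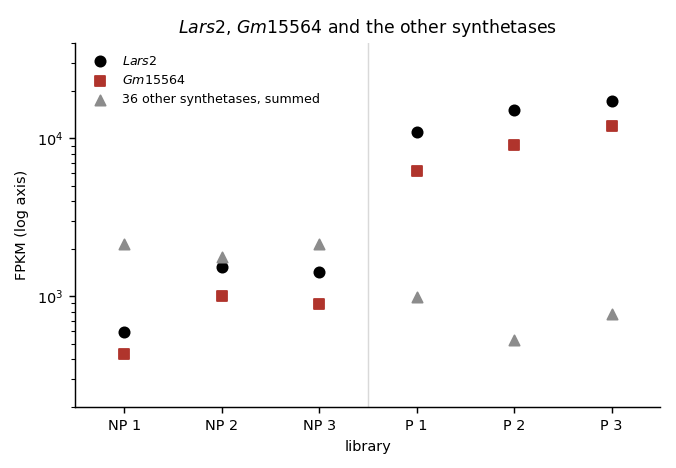
FPKM of *Lars2*, of *Gm15564* and of the 36 other synthetases summed, in each library, on a log axis. *Lars2* and *Gm15564* are higher in the 3 P libraries than in the 3 NP libraries, while the sum of the other synthetases falls from between 1773 and 2139.6 in NP to between 525 and 992 in P.

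In the maturing oocyte, cytoplasmic polyadenylation elements (CPE) in the 3′ UTR are bound by CPEB and are known to steer mRNAs onto polysomes. The letters TTTTAT and TTTTAAT were searched on the mRNA strand of the 3′ UTR of 1 coding transcript a gene (GENCODE M21). The cytosolic enzymes had short 3′ UTRs, with a median of 251 bases, against 722 for the mitochondrial enzymes and 923 for the 8893 genes tested that had one. A CPE was found in 8 of 20 cytosolic and 6 of 17 mitochondrial genes, against 58.4% of those 8893. Within the last 150 bases it was found in *Aars*, *Farsa*, *Kars* and *Lars* and in *Mars2* and *Rars2*, against 23.6% of all genes. The sites of 5 of these genes are shown to place the letters in the mRNA of *Kars*, the enzyme called lower in P, beside the others, with the CPE in capitals:
Kars chr8:111993464-111993493 minus strand: taaagaagttctTTTTATtcctcgttacca
Farsa chr8:84869199-84869228 plus strand: gcaggccagctgTTTTAATaaagtgggcac
Aars chr8:111057579-111057608 plus strand: acataaaaactaTTTTATgactggaaatac
Mars2 chr1:55248392-55248421 plus strand: ctggtaagtattTTTTATatatgctataga
Rars2 chr4:34660077-34660106 plus strand: gataaatatgttTTTTATgcaaatgagttc
The site ended 33 bases before the annotated transcript end in *Kars*, 40 in *Farsa*, 68 in *Aars*, 61 in *Mars2* and 73 in *Rars2*. In *Farsa*, and in *Lars*, the letters overlap the polyadenylation signal AATAAA. By the deposited coordinates the gene ends before the late site in *Mars2* (at 55240058) and in *Lars*, so these sites depend on the annotation used. Of the 6 genes with a late CPE, *Mars2* and *Rars2* were not tested, and the log2 ratio was -3.12 for *Kars*, -1.06 for *Farsa*, -0.71 for *Aars* and -0.43 for *Lars*. A match is a description of the letters, and no binding was measured.

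Partner genes of tRNA charging were measured by a list of 25, of which 23 were found and 18 tested. Of these, 1 was called lower (1.80% of all genes) and none higher. A ratio below 0 was found for 15, against 80.1% of all genes, and 6 lay lower in P without overlap, against 23.2%. *Dtd1* and *Aimp1* passed the filter through NP alone and *Ppa2* through P alone, so the direction of their means was set by the filter. Their median log2 ratio was -1.05, beside -1.03 over all genes. *Aimp2*, a scaffold of the multisynthetase complex, was the 1 called, at 156, 234 and 87.1 FPKM in NP and at 11.1, 14.8 and 1.56 FPKM in P. The P values lay far below the NP values, with a log2 ratio of -4.23 ± 1.02 (SE, adjusted p = 0.0543, limma). The call was lost without NP replicate 1, 2 or 3, with adjusted p of 0.376, 0.358 and 0.165, under each rescaling, at a pseudocount of 0.1 (0.115), with no filter (0.273) and without the trend (0.119). The other scaffolds differed in level. *Aimp1* was at 7.92, 16.1 and 0 FPKM in NP and reached only 0.781 FPKM in P replicate 2, while *Eef1e1* stayed between 19.5 and 51.7 FPKM in all libraries, with a log2 ratio of -0.34 ± 0.97 (SE).

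The elongation factors that take up charged tRNA were at higher levels than most synthetases. *Eef1a1*, the cytosolic factor, was at 1107, 1146 and 1038 FPKM in NP and at 465, 692 and 466 FPKM in P, with a log2 ratio of -1.04 ± 0.53 (SE, adjusted p = 0.339, limma), beside the median of -1.03. *Tufm*, its mitochondrial counterpart, was at 185, 81.5 and 177 FPKM in NP and at 24.1, 17.8 and 21.8 FPKM in P. *Eefsec*, which delivers selenocysteinyl tRNA, was at 104, 107 and 223 FPKM in NP and at 6.84, 18.6 and 28.7 FPKM in P. *Eef1a1*, *Tufm* and *Eefsec* each lay lower in P without overlap, as did 23.2% of all genes tested. The log2 ratios of *Tufm* and *Eefsec* were -2.66 ± 0.88 and -3.04 ± 0.93 (SE), with adjusted p of 0.161 and 0.128 (limma). The genes for mitochondrial amidation, *Qrsl1* and *Gatc*, were at or near 0, with no value above 0.939 FPKM.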

How the data were processed

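The deposited table gives FPKM per gene for each library, made by the authors with Seqmonk. Per the submitters' processing notes reads were trimmed with Trim Galore 0.4.1, checked with FastQC 0.11.5 and aligned to GRCm38 with HISAT2 2.0.5. Which annotation release, strand setting or read filter applied is not given in the sources used here. Columns with the authors' mean per fraction were left aside. FPKM divides by all mapped reads, so reads that fall outside the listed genes lower every value of a library. Of 25965 rows, 58 symbols were duplicated, and the row with the highest mean was kept.

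The P libraries were set against the NP libraries by limma 3.58.1 (R 4.3.3). It was fitted to log2(FPKM + 1) of genes whose mean exceeded 1 FPKM in NP or in P, letting the spread vary with the level, two-sided, with Benjamini-Hochberg adjustment over all genes tested and a threshold of 0.1. At this size (3 against 3) the smallest p that exact permutation of 1 gene allows is 0.1. Steps between low values gave the relative depth of each library, with exon lengths of GENCODE M21 found for 87.4% of genes. Transcripts were compared with BLAST 2.17.0, and summaries made in Python 3.11.15.

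Values of 1 mitochondrial enzyme are not reported here by themselves. The members and lists (partners, ribosomal RNA, complex, markers) were chosen with earlier results of these data known. Values by library were given for members past the threshold, the 5 highest of each class, the 3 largest ratios of each class and direction with the same sign in all same-numbered libraries, members at 0 in 1 fraction and above 1 FPKM in the other, *Lars2* and *Gm15564*. The other members and partners given by library (among them *Rars*, *Vars*, *Farsb*, *Lars*, *Aimp2*, *Tufm* and *Eefsec*) were chosen after their values were seen. Replicate numbers were not treated as pairs. Alternatives were pseudocounts of 0.1 and 5, a filter at 5 FPKM or none, rescaling in 3 ways, a spread that does not vary with the level, the replicate number as a block, a threshold of 0.05, and leaving out single libraries.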

Additional observations from a re-analysis of the deposited data

How the results depend on the processing

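The count of called genes, 192 with 2 synthetases, was 156 with 2 at a pseudocount of 5 and 210 with 2 at a filter of 5 FPKM, and 240 with 1 and 156 with 2 without P replicate 1 or 2. It was 69 genes with 1 synthetase at a pseudocount of 0.1, 65 with 1 at a threshold of 0.05, 15 with 0 without the trend, and 3, 5 and 7 with 1 each under rescaling by the median of ratios, by quantiles and to a common sum. With no filter it was 0 genes and 0 synthetases (limma), with 1759 genes and 5 synthetases at an unadjusted p under 0.05. Leaving out 1 library gave 1 to 331 genes and 0 to 2 synthetases, with 4 genes without NP replicate 1, 12 without NP replicate 2, 1 without NP replicate 3 and 331 without P replicate 3. Rescaling moved the median of all genes from -1.03 to -0.37, -0.14 and -0.35 and the split of calls from 2 higher and 190 lower to 2 and 1, 2 and 3, and 2 and 5. With the replicate number as a block, 668 genes (5 higher, 663 lower) and 3 synthetases were called, *Wars2* (adjusted p = 0.073), *Kars* and *Lars2*. Each gradient gave an NP and a P pool, but no source used here says that the numbers match between them. Deviations from the fraction means correlated at 0.063, 0.099 and 0.116 for equal numbers and from -0.089 to 0.021 otherwise. Each library thus correlated best with its own number, a hint from the data that equal numbers belong together. As no source used here states it, the fit without a block was kept above, and the pairing was not settled.

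*Lars2* kept its direction in all fits and its call in 12 of 15. Its log2 ratio of 3.71 had an adjusted p of 0.263 with no filter and 0.119 without the trend, and leaving out 1 library gave 3.27 to 3.95. *Kars* kept its direction in all fits and its call in 5 of 15, with adjusted p between 0.0398 and 0.682. The median of the cytosolic enzymes stayed below 0 and below that of all genes in every fit. It was -0.57 under quantile normalization, and -2.09 to -1.23 with 1 library left out. The median of the mitochondrial enzymes was -1.88 to -0.84 with 1 library left out. It was 0.11 above that of all genes without NP replicate 1 and 0.059 above with no filter. *Sars2* turned to 0.023 at a pseudocount of 5 and to 0.85, 0.64 and 0.87 under the 3 rescalings, and ran from -1.33 to 1.24 with 1 library left out. *Fars2* turned to 0.40, 0.33 and 0.43 under the rescalings. Of 208 values of 13 single synthetases, 186 kept direction and side of the threshold. The mean mitochondrial share in NP was 28.3% when log2(FPKM + 1) was summed in place of FPKM, against 24.98% in P. With 1 library left out the FPKM share was 9.48% to 15.4% in NP and 13.1% to 25.1% in P. Depth limits low values, above all in P replicate 1 with its 163822 steps. The causes of these changes were not tested.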
